A study of Homo sapiens with 12 samples.

Results

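The 10 genes described here code for proteins that move cholesterol between the membranes of a cell, or that regulate this movement. They were given as a list of symbols (NPC1, NPC2, NPC1L1, TMEM97, STARD4, STARD3, STARD5, OSBP, GRAMD1A and GRAMD1B), and all 10 were found, each under 1 Ensembl identifier, among the 58735 genes of the count table. Their RNA was measured in HEC-1A, a line of epithelial origin from an endometrial adenocarcinoma, and in T-HESC, a line of endometrial stromal fibroblasts immortalised with telomerase. AG-205, a small molecule sold as an inhibitor of the heme-binding membrane protein PGRMC1, was added at 15 µM for 32 h. The study disputes that AG-205 is specific to PGRMC1. The other cultures of each line received DMSO, the solvent of AG-205, for the same time, and 3 libraries were sequenced for each of the 4 groups. The medium of all groups contained fetal bovine serum, which carries lipoprotein cholesterol, and each cell type was represented by a single established line.

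Cholesterol that enters a cell in lipoproteins is freed in late endosomes and lysosomes, handed by the soluble protein NPC2 to the membrane protein NPC1, and then carried on to the plasma membrane and the endoplasmic reticulum. Much of the onward traffic is not vesicular. START-domain proteins, oxysterol-binding proteins and the Aster proteins (the GRAMD1 family) shuttle sterol across the narrow gap between membranes, often at contact sites. The endoplasmic reticulum is where cells sense their cholesterol, and when it falls the SREBP-2 transcription factor is activated and raises the genes of cholesterol synthesis and uptake.

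The sequences just upstream of the start sites are shown for 5 of the genes, because the results set them apart: STARD4, TMEM97 and NPC1L1, which were higher with AG-205 in HEC-1A, NPC1, whose levels varied most among the AG-205 libraries of T-HESC, and OSBP, whose means were close in all groups except T-HESC with AG-205. They are RefSeq promoter windows on GRCh38.p14, printed 5′ to 3′ on the strand of the gene, with the 250 bases before the RefSeq start site. Capitals mark the letters CCAAT or their reverse complement, the core of the box bound by the factor NF-Y, which acts beside SREBP at many sterol-regulated promoters.
STARD4, chr5:111512536-111512785, minus strand: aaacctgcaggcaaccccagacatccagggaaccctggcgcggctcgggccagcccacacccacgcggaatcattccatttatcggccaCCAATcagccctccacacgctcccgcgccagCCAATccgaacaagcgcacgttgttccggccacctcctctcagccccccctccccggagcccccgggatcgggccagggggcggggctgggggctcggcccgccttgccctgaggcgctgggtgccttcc
TMEM97, chr17:28318950-28319199, plus strand: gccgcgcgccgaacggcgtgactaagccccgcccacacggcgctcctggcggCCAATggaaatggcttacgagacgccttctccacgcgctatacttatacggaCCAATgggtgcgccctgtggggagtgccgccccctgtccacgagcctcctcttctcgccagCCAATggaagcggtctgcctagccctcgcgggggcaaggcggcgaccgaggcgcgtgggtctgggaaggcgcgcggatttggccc
NPC1L1, chr7:44541331-44541580, minus strand: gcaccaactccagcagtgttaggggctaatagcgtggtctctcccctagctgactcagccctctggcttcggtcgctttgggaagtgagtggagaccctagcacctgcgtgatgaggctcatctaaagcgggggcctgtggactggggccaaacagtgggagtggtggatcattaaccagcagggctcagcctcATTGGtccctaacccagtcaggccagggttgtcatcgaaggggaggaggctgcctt
NPC1, chr18:23586507-23586756, minus strand: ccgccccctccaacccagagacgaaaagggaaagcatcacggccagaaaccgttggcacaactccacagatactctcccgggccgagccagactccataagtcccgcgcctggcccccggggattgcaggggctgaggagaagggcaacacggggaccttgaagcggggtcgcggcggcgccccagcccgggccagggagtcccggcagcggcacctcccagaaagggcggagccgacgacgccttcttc
OSBP, chr11:59615775-59616024, minus strand: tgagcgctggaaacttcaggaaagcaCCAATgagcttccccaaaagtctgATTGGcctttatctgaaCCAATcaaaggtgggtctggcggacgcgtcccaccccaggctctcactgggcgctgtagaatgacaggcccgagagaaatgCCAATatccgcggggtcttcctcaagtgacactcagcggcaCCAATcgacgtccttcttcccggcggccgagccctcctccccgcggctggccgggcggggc
Windows of 300 bases were available for 9 of the 10 genes, GRAMD1B being the exception, and were searched on both strands. CCAAT was present in the windows of 6 genes (NPC1L1, NPC2, OSBP, STARD4, STARD5 and TMEM97) and in 34.6% of all 35116 promoter windows of this length. A gene was counted when any of its windows matched, and NPC2 and GRAMD1A had more windows than the other genes. The number of genes and the share of windows are therefore not like measures. The TMEM97 window held 3 matches, whose first letters were 198, 146 and 85 bases before the start site, and the STARD4 window held 2, at 161 and 130 bases. The OSBP window held 5 and the NPC1 window none. Whether the number of these letters goes with the size of the AG-205 effect described below was not tested. The sterol regulatory element TCACNCCAC, the sequence that SREBP is named for, was in none of the 9 genes' windows and in 1.13% of all windows. The palindrome TCACGTGA of the lysosomal gene regulators TFEB and TFE3 was in none of them and in 0.98% of all windows. These are matches of letters in a short window, and a window without a match does not speak to binding outside it or to related letters. Both begin with TCAC, and neither contains CCAAT.

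Total counts ranged from 7168542 (HEC-1A, AG-205 replicate 3) to 15178276. Levels are given in CPM (counts scaled to a common library size, with TMM over the 12 libraries), and the effect of AG-205 was tested in each line with edgeR's quasi-likelihood test, where a gene was called at an adjusted p under 0.05 together with a log2 fold change above 1 or below -1. This log2 fold change is called the effect of AG-205 from here on, and is positive where the gene was higher with AG-205. Libraries of T-HESC varied more than those of HEC-1A, with a biological coefficient of variation of 33.6% against 10.1%. On the first principal component of T-HESC (51.9% of the variance), AG-205 replicate 1 had a score of 85.4 and the other 5 libraries scores from -33.8 to 1.97. The epithelial markers (EPCAM, CDH1, KRT8, KRT18, KRT19 and CLDN4) summed to 1299 to 2050 CPM in HEC-1A libraries and to 221 to 387 CPM in T-HESC libraries. The stromal markers (VIM, COL1A1, COL1A2, PDGFRB, THY1 and COL6A3) summed to 8.80 to 14.7 CPM in HEC-1A and 13148 to 26186 CPM in T-HESC. By these sums each line carried the markers of its label. Singly, 5 of the 6 epithelial markers were called lower in T-HESC than in HEC-1A under DMSO. The exception was KRT19, with means of 106 CPM in T-HESC and 100 CPM in HEC-1A. KRT18 was lower in T-HESC but still at 155 CPM, against 357 CPM in HEC-1A. PECAM1, of endothelium, was at or under 3 counts in every library. PTPRC, of leukocytes, had no count in HEC-1A and was at most 1.498 CPM in T-HESC.

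STARD4 and TMEM97 rose in HEC-1A cells cultured with AG-205, by 5.26-fold and 2.98-fold, and NPC1L1, which was barely counted with DMSO, had about 19 times the scaled counts. None of the 9 genes tested in this line was called lower, and GRAMD1B was not tested. NPC1L1 passed the filter on low counts only through its AG-205 libraries, so it had to differ, and its call is no support. Without it, 2 of 8 genes were called higher and 0 lower (edgeR, with 0 lower also at an unadjusted p under 0.05, and DESeq2 called the same genes), while 2.58% of the 14122 genes tested were called higher and 0.205% lower. NPC1 and NPC2 were also higher at an adjusted p under 0.05, with changes smaller than the fold limit. That makes 4 of the 8 genes by the adjusted p alone, against 7.35% of all genes tested. Among the same 8 genes, every AG-205 library lay above every DMSO library for NPC1, NPC2, TMEM97, STARD4, STARD3 and GRAMD1A. The share over all genes tested was 16.4%. NPC1L1 was also without overlap, which is no support for the reason given above. The median log2 fold change was 0.40 over the 8 genes and 0.006 over all genes tested. The genes were chosen with earlier results of these data known, so these contrasts with the whole table are a description only.

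**Figure D1:**
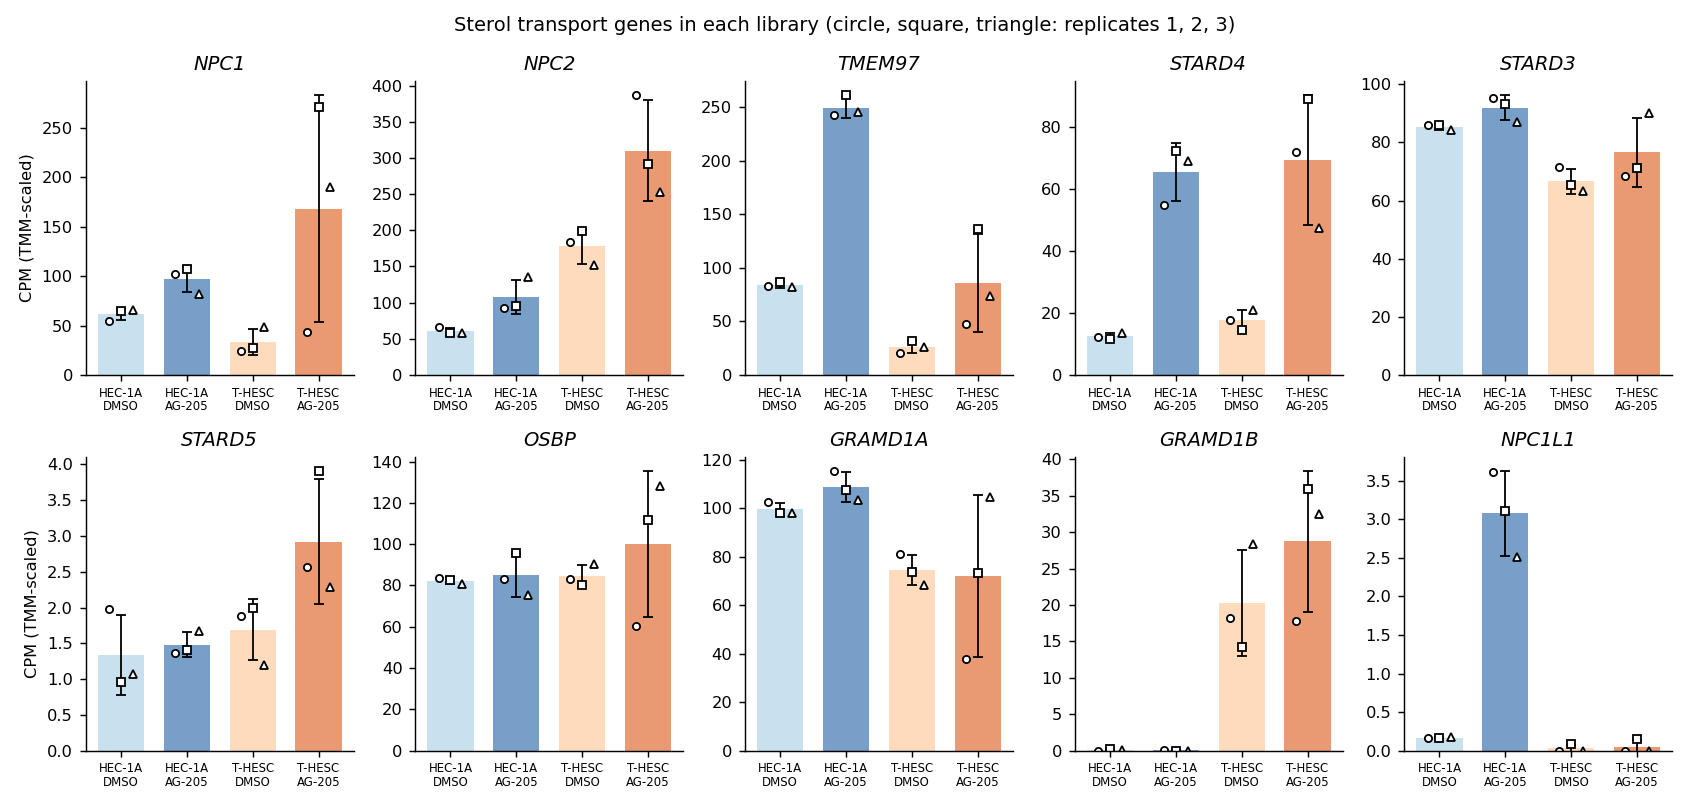
Level of each of the 10 genes in the 12 libraries, in CPM on linear axes that start at 0; bars are group means, error bars the SD over 3 libraries, and symbols the libraries. STARD4 and TMEM97 stand higher with AG-205 in every library of both lines, NPC1L1 is above 1 CPM only in HEC-1A with AG-205, and GRAMD1B is near 0 in HEC-1A.

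STARD4 (ENSG00000164211, chr5:111496033-111512590, minus strand, GRCh38) is a soluble START-domain carrier that brings cholesterol to the endoplasmic reticulum. In HEC-1A it was at 54.7, 72.3 and 69.1 CPM in the AG-205 libraries and at 12.1, 11.6 and 13.6 CPM in the DMSO libraries. The groups were far apart, with an effect of 2.40 (SE 0.133, adjusted p = 1.4865e-07, edgeR). In T-HESC its levels were 71.8, 89.0 and 47.4 CPM with AG-205 and 17.7, 14.6 and 20.9 CPM with DMSO. These groups did not overlap either, and the AG-205 means of the lines were close, at 65.4 ± 9.34 and 69.4 ± 20.9 CPM (SD, n = 3).

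TMEM97 (ENSG00000109084, chr17:28319200-28328685, plus strand) is the sigma-2 receptor, a membrane protein that binds NPC1 and lowers its amount. Its levels in HEC-1A were 243, 262 and 245 CPM with AG-205 and 83.2, 86.8 and 81.9 CPM with DMSO. The libraries within each group differed little, and the effect was 1.58 (SE 0.0876, adjusted p = 1.4865e-07). In T-HESC it was at 47.2, 136 and 73.4 CPM with AG-205 and at 20.6, 32.0 and 26.3 CPM with DMSO, with no overlap but a wide spread among the treated libraries. The TMEM97 exons overlap those of IFT20 on the opposite strand over 12.3% of their length, and the effects on IFT20 itself were 0.07 (HEC-1A) and 0.15 (T-HESC). The 2 annotated TMEM97 pseudogenes had 0 counts.

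NPC1L1 (ENSG00000015520, chr7:44512535-44541330, minus strand) is the cholesterol uptake protein of the intestinal brush border and the target of ezetimibe. It had 53, 42 and 21 counts in the AG-205 libraries of HEC-1A and 2 counts in each of the 3 DMSO libraries. The sums of 116 and 6 counts, scaled to the libraries, gave a ratio of 18.96 with an exact 95% interval of 8.452 to 52.73 that covers counting error only. In T-HESC it had 0, 2 and 0 counts with AG-205 and 0, 1 and 0 with DMSO, so it was at the floor of 3 counts per library, was not tested, and no fold can be given. Even with AG-205 the HEC-1A level was low, at 3.08 ± 0.552 CPM (SD, n = 3).

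NPC1 (ENSG00000141458, chr18:23506184-23586506, minus strand) and NPC2 (ENSG00000119655, chr14:74476192-74494177, minus strand) act in sequence in lysosomal cholesterol export, and their loss causes Niemann-Pick disease type C. NPC1 in HEC-1A was at 102, 107 and 81.9 CPM with AG-205 and at 55.02, 64.2 and 65.4 CPM with DMSO. The groups did not overlap, and the effect was 0.66 (SE 0.115, adjusted p = 0.00288, edgeR). NPC2 in HEC-1A was at 93.0, 95.2 and 136 CPM with AG-205 and at 66.0, 57.7 and 58.0 CPM in the DMSO libraries, and the effect was 0.83 (SE 0.140, adjusted p = 0.00247). Of the AG-205 libraries, replicate 3, whose total was the smallest, was the highest for NPC2 and the lowest for NPC1. Leaving it out gave an effect of 0.63 for NPC2, and over all settings tried the effect on NPC1 was between 0.58 and 0.76. When both lines were fitted together, with the larger spread of T-HESC in the estimate, the adjusted p was 0.874 for NPC1 and 0.107 for NPC2.

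STARD3, STARD5, OSBP and GRAMD1A did not pass the test in HEC-1A. STARD3 (ENSG00000131748, chr17:39637090-39664201, plus strand), a late endosomal START protein that tethers these organelles to the endoplasmic reticulum, was at 95.4, 93.4 and 87.1 CPM with AG-205 and 85.9, 86.0 and 84.2 CPM with DMSO. Its libraries did not overlap between the groups, and the effect was 0.11 (SE 0.0852, adjusted p = 0.451). GRAMD1A (ENSG00000089351, chr19:34994784-35026471, plus strand), an Aster protein that takes up plasma membrane cholesterol into the endoplasmic reticulum, was at 115, 108 and 103 CPM with AG-205 and 103, 98.1 and 97.9 CPM in the DMSO libraries, and the effect was 0.13 (SE 0.0869, adjusted p = 0.375). OSBP (ENSG00000110048, chr11:59574398-59615774, minus strand), which exchanges cholesterol for phosphatidylinositol 4-phosphate between the endoplasmic reticulum and the Golgi, was at 83.1, 95.8 and 75.6 CPM with AG-205. Its DMSO libraries, at 83.8, 82.5 and 80.6 CPM, lay within that range, and the effect was 0.05 (SE 0.0994, adjusted p = 0.813). STARD5 (ENSG00000172345, chr15:81309053-81324183, minus strand), a small soluble START protein, was low and overlapped between the groups, at 1.37, 1.40 and 1.68 CPM against 1.97, 0.956 and 1.08 CPM (adjusted p = 0.855). IL16 lies opposite to 68.6% of the STARD5 exon length and had 21 counts in the 12 libraries together. The strand setting of the counting is not given. Whether reads of the shared part were counted for STARD5, for IL16 or for neither is therefore not known, and the STARD5 level may be too low. GRAMD1B (ENSG00000023171, chr11:123358428-123627774, plus strand), the second Aster gene of the list, had 2, 0 and 0 counts with AG-205 and 0, 3 and 1 with DMSO in HEC-1A, and was not tested there.

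Among the epithelial markers, CLDN4 (log2 fold change 1.22) and KRT19 (1.09) also rose in HEC-1A, and the summed epithelial markers were at 1299 to 1459 CPM with DMSO and 1983 to 2050 CPM with AG-205. CLDN4 alone went from a mean of 302 to 703 CPM, KRT8 was higher by the adjusted p alone (0.48), and EPCAM (-0.10), CDH1 (0.07) and KRT18 (0.15) did not pass the test. The part of these markers in the changes of the transport genes was not tested. In bulk libraries, a change in the number of cells that hold a transcript and a change in the amount per cell cannot be told apart.

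**Figure D2:**
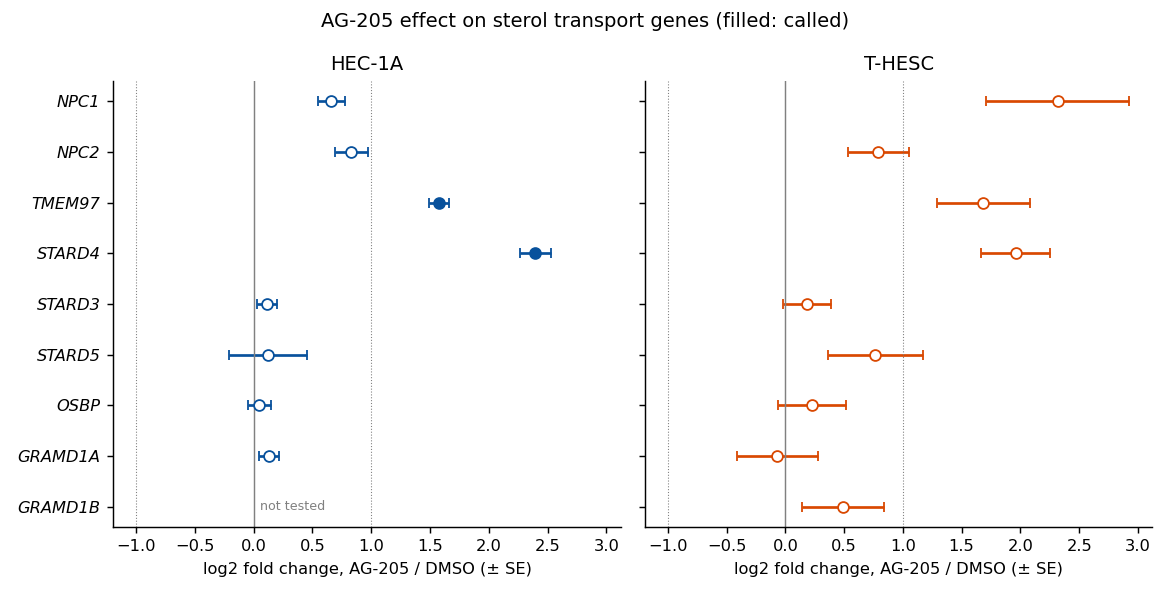
Log2 fold change of AG-205 against DMSO for 8 of the genes in HEC-1A, where GRAMD1B was not tested, and 9 in T-HESC, with error bars of 1 SE, filled where called and with dotted lines at the fold limits of -1 and 1; NPC1L1, at or under 3 counts in each DMSO library, is left out. In T-HESC the points of STARD4, TMEM97 and NPC1 lie at 1.96, 1.68 and 2.32 with error bars 2.201 to 5.32 times as long as in HEC-1A.

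In T-HESC, the effects on NPC1, STARD4 and TMEM97 were 2.32, 1.96 and 1.68, but none of the 9 tested genes was called higher or lower by edgeR, against 0.08% of the 13753 genes tested called higher and 0 lower. At an unadjusted p under 0.05 (edgeR), 4 of the 9 were higher (NPC1, NPC2, STARD4 and TMEM97) and 0 lower. Of all 13753 genes tested, 740 passed that limit in either direction. DESeq2 called 3 of the 9 higher, NPC1, STARD4 and TMEM97. In the whole table it called 100 of 15097 genes higher and 15 lower. The AG-205 libraries lay above all DMSO libraries for 4 genes (NPC2, TMEM97, STARD4 and STARD5), against 6.23% of all genes tested. The median log2 fold change was 0.76 over the 9 genes and 0.02 over all genes tested.

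NPC1 had the widest spread in CPM of the 10 genes in T-HESC with AG-205. Its levels were 43.9, 271 and 190 CPM with AG-205 and 24.2, 26.8 and 48.9 CPM with DMSO. Relative to the DMSO mean, replicates 2 and 3 were 8.12 and 5.71 times as high and replicate 1 was 1.32 times as high, below the highest DMSO library. The effect was 2.32 (SE 0.610, adjusted p = 0.445, edgeR). RMC1, whose exons lie opposite to 6.38% of the NPC1 exon length, had an effect of 0.76 (adjusted p = 0.694).

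STARD4, by contrast, stood above all DMSO libraries in each treated library, at 4.05, 5.02 and 2.68 times the DMSO mean. Its effect of 1.96 (SE 0.292) had an adjusted p of 0.0963 (edgeR) and was not called. TMEM97 was at 1.797, 5.19 and 2.80 times the DMSO mean, and its effect was 1.68 (SE 0.395, adjusted p = 0.383, edgeR). NPC2 was at 387, 291 and 252 CPM with AG-205 and at 183, 199 and 152 CPM with DMSO. It was the only gene of the 10 with its highest AG-205 level in replicate 1, and its effect was 0.79 (SE 0.258, adjusted p = 0.645).

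The remaining genes were as follows in T-HESC. STARD5 was at 2.56, 3.91 and 2.29 CPM with AG-205 and 1.88, 1.99 and 1.20 CPM with DMSO, without overlap, and its effect of 0.76 (SE 0.404) had an adjusted p of 0.993. GRAMD1B was at 17.7, 36.0 and 32.6 CPM against 18.2, 14.3 and 28.4 CPM, and OSBP at 60.5, 112 and 128 CPM against 83.0, 80.5 and 90.4 CPM. GRAMD1A was at 38.0, 73.3 and 105 CPM against 81.0, 73.8 and 68.5 CPM. For GRAMD1B, OSBP and GRAMD1A the AG-205 library of replicate 1 was below, and that of replicate 3 above, the group's DMSO mean, so the groups overlapped. STARD3 was at 68.4, 71.3 and 90.2 CPM against 71.4, 65.4 and 63.2 CPM, also with overlap. In the order GRAMD1B, OSBP, GRAMD1A and STARD3, the effects were 0.49, 0.23, -0.07 and 0.19, and the effect on GRAMD1A became 0.23 when AG-205 replicate 1 was left out.

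With AG-205 replicate 1 left out, NPC1, STARD4 and TMEM97 were called in T-HESC, with effects of 2.77 (adjusted p = 0.0133), 1.92 (adjusted p = 0.0383) and 1.97 (adjusted p = 0.0411, edgeR). That fit called 69 of 14088 genes higher and 3 lower in the whole table. The same 3 genes, and no other of the 10, were called in 5 of the 16 other settings tried. DESeq2 gave adjusted p-values of 0.00811 for NPC1, 5.59e-06 for STARD4 and 0.0114 for TMEM97. Over all settings the adjusted p ranged from 8.06e-08 to 1.00 for NPC1, from 5.59e-06 to 0.727 for STARD4 and from 0.000162 to 1.00 for TMEM97. The effects moved less, between 1.77 and 3.01 for NPC1, between 1.72 and 2.24 for STARD4 and between 1.16 and 2.03 for TMEM97. The stromal markers summed to 13148 to 21419 CPM with AG-205 and 18127 to 26186 CPM with DMSO in the T-HESC libraries. COL1A1 had an effect of -1.09, without overlap between the groups. The others overlapped, with effects of -0.46 (COL1A2), -0.41 (PDGFRB), -0.09 (THY1), 0.09 (COL6A3) and 0.26 (VIM). The epithelial markers summed to 221 to 387 CPM with AG-205 and 238 to 342 CPM with DMSO. Among these epithelial markers KRT19 had an effect of 1.05 and KRT18 of -1.47, each without overlap between the groups. CLDN4, EPCAM and KRT8 (effect -0.33) overlapped. CDH1 was lower with AG-205 without overlap, but at the floor of 3 counts. PTPRC was at 0.075 to 0.640 CPM with AG-205 and 1.355 to 1.498 CPM with DMSO. No marker was called in T-HESC (edgeR, with 1 higher and 2 lower at an unadjusted p under 0.05), while DESeq2 called KRT19, and a fit with library quality weights called KRT18 and PTPRC lower. The part of the markers in these values was not tested.

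**Figure D3:**
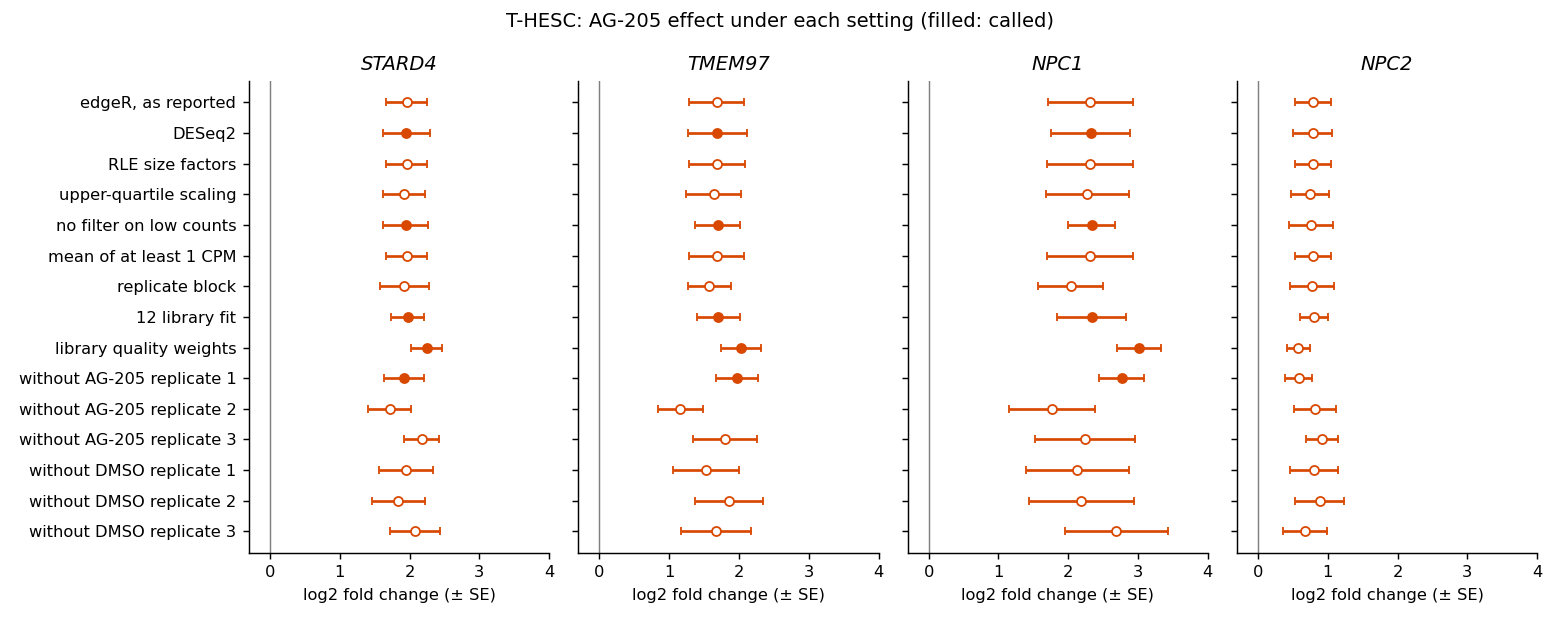
Log2 fold change of STARD4, TMEM97, NPC1 and NPC2 in T-HESC with 1 SE, under the reported edgeR fit and 14 other settings of test, scaling, filter or libraries, filled where called. The points of all 4 genes stay above 0 in every setting drawn, while the calls of STARD4, TMEM97 and NPC1 come and go together and NPC2 has none.

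Whether AG-205 acted on these genes to a different extent in the 2 lines was tested as the difference of the effects, T-HESC minus HEC-1A, in a fit of all 12 libraries. No gene of the 10 was called (edgeR, against 0.0434% of 16132 genes called higher and 0.13% lower), and DESeq2 called none. At an unadjusted p under 0.05, only NPC1 differed. Its effect was larger in T-HESC by 1.68 on the log2 scale (SE 0.672, adjusted p = 0.697), and it was called when T-HESC AG-205 replicate 1 was left out (2.14, adjusted p = 0.0165), when low counts were not filtered (adjusted p = 0.000119) and with library quality weights (adjusted p = 0.00205). The differences were -0.42 for STARD4 (SE 0.321), 0.13 for TMEM97 (SE 0.422) and -0.03 for NPC2 (SE 0.286), and these standard errors leave room for differences of sizeable folds. For STARD5, OSBP, STARD3 and GRAMD1A they were 0.65, 0.20, 0.09 and -0.18. NPC1L1 and GRAMD1B were at the floor in 1 of the lines and gave no difference that can be read.

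Under DMSO, GRAMD1B and NPC2 were called higher and TMEM97 lower in T-HESC than in HEC-1A. These are 2 and 1 of the 10 genes, against 22.1% and 22.2% of 16132 genes tested. The counts among 10 genes are near or below the share in the whole table and do not set the list apart. GRAMD1B passed the filter only through T-HESC, so its call is no support, and NPC1L1 was at the floor. Of the other 8 genes, 1 was called higher and 1 lower. GRAMD1B had 698 counts in the 3 T-HESC libraries and 4 in those of HEC-1A, a ratio of 176.9 (exact 95% interval 68.8 to 651.2, counting error only). NPC2 was higher in T-HESC by 1.56 on the log2 scale (SE 0.208, adjusted p = 3.18e-05, edgeR), with 178 ± 24.2 against 60.6 ± 4.68 CPM (SD, n = 3). TMEM97 had a log2 difference of -1.68 (SE 0.309, adjusted p = 0.000447), with 26.3 ± 5.71 CPM in T-HESC and 83.9 ± 2.54 CPM in HEC-1A. STARD3 was slightly lower in T-HESC, by a log2 difference of -0.36 (adjusted p = 0.0469), and 2 genes were lower by the adjusted p alone, against 29.5% of all genes tested. STARD4 (0.51, adjusted p = 0.0760), NPC1 (-0.89, adjusted p = 0.130), GRAMD1A (-0.42, adjusted p = 0.197), STARD5 (0.35, adjusted p = 0.440) and OSBP (0.04, adjusted p = 0.893) did not pass the test. NPC1L1 was at or under 3 counts in each DMSO library of both lines.

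To compare genes with each other, CPM was divided by the exon length of each gene in kilobases. This length joins all annotated exons of a gene, whether or not the cells use them, and includes bases shared with other genes. Both can lower the value of some genes more than others, so the order between genes is approximate. Under DMSO in HEC-1A, TMEM97 had the highest level per kilobase, at 28.7 ± 0.868 (SD, n = 3), followed by NPC2 at 23.4 ± 1.81, GRAMD1A at 16.9, OSBP at 16.1, STARD3 at 14.6, NPC1 at 6.34 and STARD4 at 2.19 CPM per kilobase. STARD5 was at 0.211 CPM per kilobase, and NPC1L1 and GRAMD1B were at the floor. No neighbours in this order overlapped over the 3 libraries, down to STARD5. In T-HESC the order under DMSO began with NPC2 at 68.9 ± 9.35 CPM per kilobase and went on with OSBP at 16.5, GRAMD1A at 12.6, STARD3 at 11.4, TMEM97 at 8.97, NPC1 at 3.44, STARD4 at 3.12, GRAMD1B at 1.36 and STARD5 at 0.267. There GRAMD1A and STARD3, STARD3 and TMEM97, and NPC1 and STARD4 overlapped over their libraries.

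With AG-205, TMEM97 stood at 85.3 ± 3.49 CPM per kilobase in HEC-1A, apart from all other genes of the list, and NPC2 was next at 41.8 ± 9.27. STARD4 moved from the seventh to the sixth place there, at 11.5 CPM per kilobase, a level that overlapped that of NPC1 at 10.0. In T-HESC with AG-205, NPC2 remained apart at 120 ± 26.8 CPM per kilobase. TMEM97, OSBP, NPC1, STARD3, STARD4 and GRAMD1A then followed with means from 29.2 to 12.2 CPM per kilobase, and each overlapped its neighbours. NPC1 in that group ranged from 4.52 to 27.9 CPM per kilobase.

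**Figure D4:**
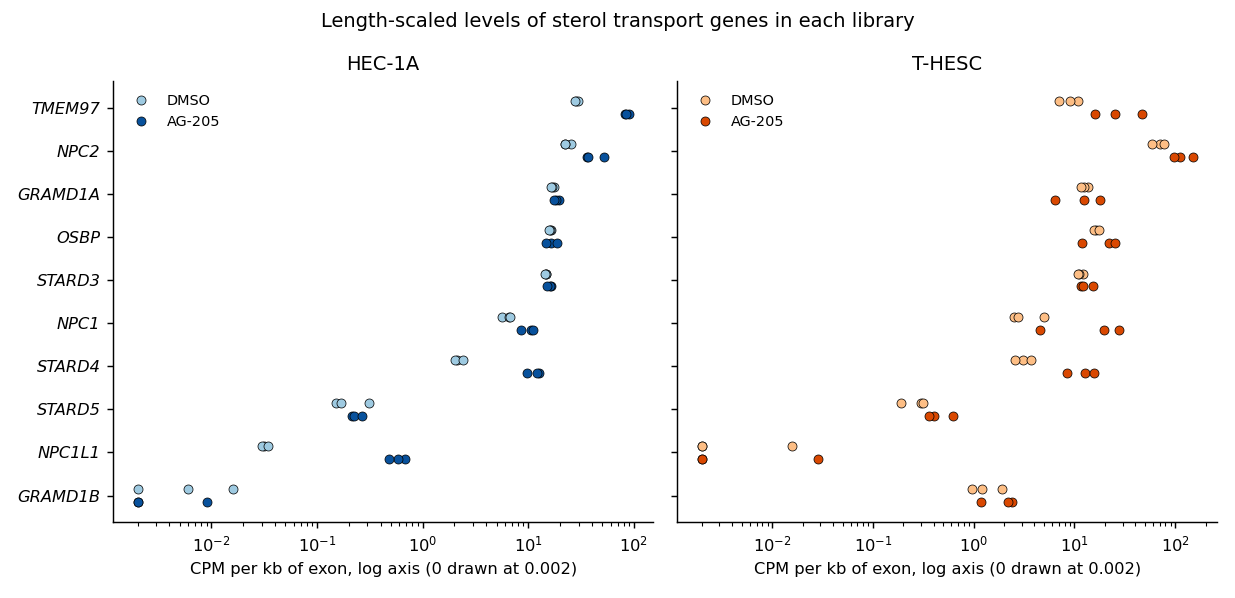
CPM per kilobase of exon for each library (points) in HEC-1A and T-HESC, on a log axis with values of 0 drawn at 0.002, with genes ordered by their mean in HEC-1A with DMSO. TMEM97 leads in HEC-1A and NPC2 in T-HESC, while NPC1L1 (T-HESC) and GRAMD1B (HEC-1A) lie at the left edge.

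For STARD4, TMEM97 and NPC1L1, the most alike patterns over the 12 libraries were ranked by Pearson's r of log2 CPM among 16131 genes, as a description in which the difference between lines and treatments sets much of the value. STARD4 was most like IDI1 (r = 0.979), ACAT2 (0.978) and NSDHL (0.975). TMEM97 was most like NEU1 (0.985), DHCR7 (0.966) and TNFSF9 (0.965). NPC1L1 was most like FFAR1 and CDHR1 (0.988 each) and PRDM16 (0.985), which like it were ranked over libraries where most NPC1L1 counts were between 0 and 3.

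A further 30 genes of sterol transport, lysosomal sterol handling and membrane contact sites were read in the same fits. In HEC-1A, 2 of the 26 tested rose, EBP and LIPA, and 0 fell (edgeR, with 1 lower at an unadjusted p under 0.05 and 0 with DESeq2), against the 2.58% of all genes that were called higher. EBP, a sterol isomerase of cholesterol synthesis that belongs to the same EXPERA family as TMEM97 and is no carrier, was at 306, 319 and 346 CPM with AG-205 and at 111, 86.7 and 91.2 CPM with DMSO. The effect on EBP was 1.75 (SE 0.111, adjusted p = 6.1e-07). LIPA, the lysosomal acid lipase that frees cholesterol from its esters before NPC2 and NPC1 export it, was at 47.2, 55.05 and 65.4 CPM with AG-205 and at 22.7, 24.4 and 24.2 CPM with DMSO, and the effect was 1.23 (SE 0.126, adjusted p = 4.97e-05). By the adjusted p alone 6 of 26 were higher, against 7.35% of all genes tested, adding OSBPL7 (0.52), MOSPD2 (0.44), PI4K2A (0.42) and SACM1L (0.33). Of the 6 contact site partners on the list, MOSPD2, PI4K2A and SACM1L were thus higher by the adjusted p alone, while VAPA (-0.03), VAPB (-0.12) and PI4KB (-0.12) did not pass the test. For the 11 relatives of OSBP, effects ran from -0.33 to 0.52 in HEC-1A, and from -0.36 to 0.54 in T-HESC.

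In T-HESC, 0 of 26 of these genes were called by edgeR, with 1 at an unadjusted p under 0.05, and DESeq2 called 1, in each case EBP. EBP was at 217, 158 and 120 CPM with AG-205 and at 41.9, 42.0 and 46.8 CPM with DMSO, and the effect of 1.91 had an adjusted p of 0.0841. It was above the DMSO libraries in all 3 AG-205 libraries and was highest in replicate 1, the AG-205 library in which TMEM97 and NPC1 were lowest. The effect on LIPA in T-HESC was 0.43. The median effects over the 26 genes were 0.06 (HEC-1A) and 0.11 (T-HESC), against 0.006 and 0.02 over all genes tested.

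**Figure D5:**
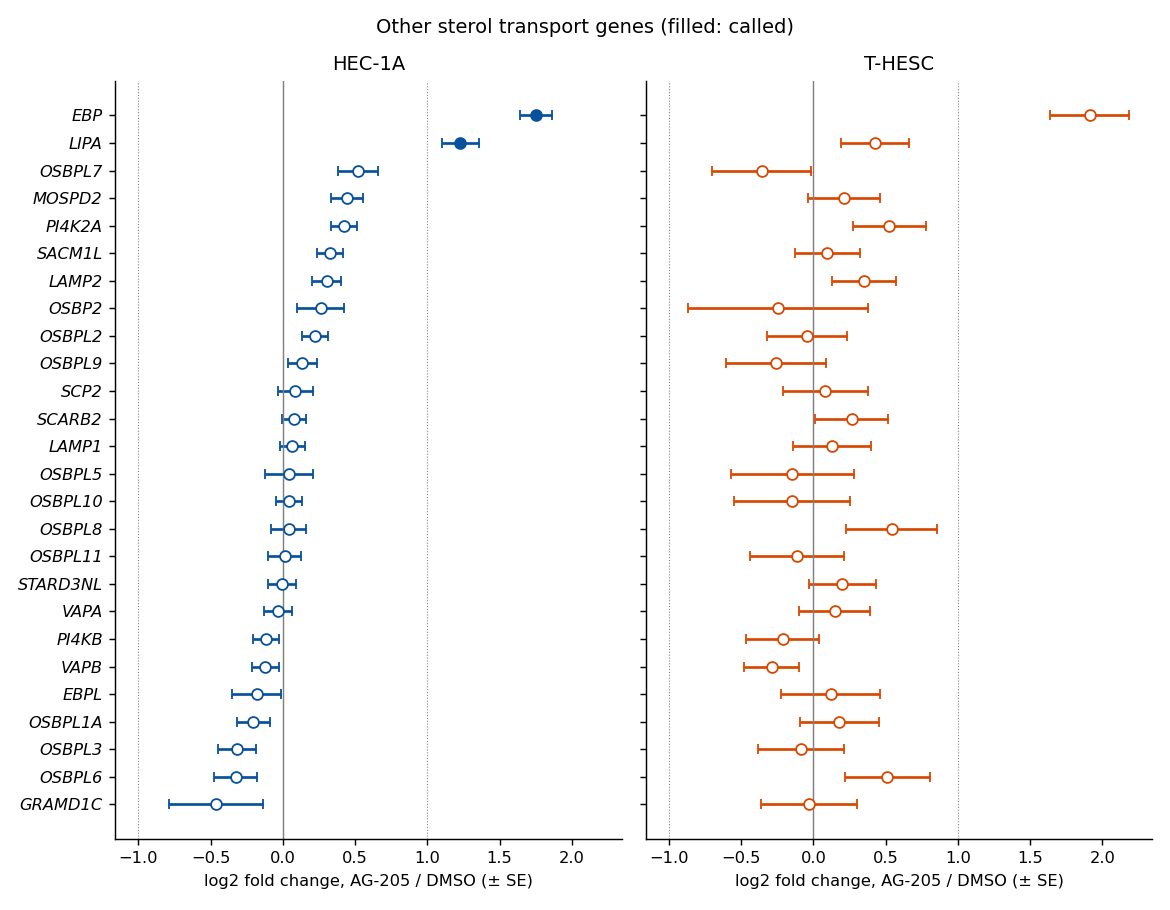
Log2 fold change of AG-205 against DMSO with 1 SE for the 26 tested genes of the wider list, ordered by the value in HEC-1A, filled where called and with dotted lines at -1 and 1. EBP stands at the top in both lines, at 1.75 and 1.91, while LIPA is called at 1.23 in HEC-1A and stands at 0.43 in T-HESC.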

How the data were processed

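Libraries from 3 independent culture experiments per group, according to the study's methods, were compared. The values the authors deposited are raw counts of reads for each gene, not normalized. Their libraries were made from polyA RNA. Read pairs were trimmed (Trimmomatic 0.38), mapped on GRCh38 (HISAT2 2.1.0) and assigned to Ensembl genes with featureCounts (Subread 2.0.0). The strand setting and the treatment of multimapping reads are not given in the sources used here, so reads of exons that overlap on opposite strands, as for STARD5 and TMEM97, cannot be told apart.

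Counts were scaled with TMM, filtered with filterByExpr and tested with edgeR 4.0.16 in R 4.3.3 (quasi-likelihood test, Benjamini-Hochberg adjustment over all genes tested), AG-205 against DMSO in each line (14122 genes in HEC-1A, 13753 in T-HESC). The comparison of the lines and the difference of effects came from a fit of all 12 libraries (16132 genes). The SE is the log2 fold change over the square root of the F statistic. A count of at most 3 in every library of a group was the floor, and ratios against such groups were given with exact 95% counting intervals. Total counts ranged from 7168542 to 15178276, and no 2 libraries of a group agreed within sampling noise (chi-square per degree of freedom 1.79 to 207). With 3 libraries against 3, an exact permutation test cannot go below p = 0.1, so models across genes were used. Exon lengths, positions and overlaps came from GENCODE 44 by gene identifier, and promoter windows from RefSeq (GRCh38.p14), by symbol. According to the study's methods, reads were counted on an earlier Ensembl annotation. The exons counted can therefore differ from those behind the lengths and overlaps given here. Plots were drawn with matplotlib 3.10.9. The fits were tested on simulated data.

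The genes and lists were chosen with earlier results of these data known. A comparison list of sterol-regulated genes is not reported here. Named were the 10 genes, the genes of the wider list called in either line, genes overlapping the 10, and the 3 most alike genes for each of the 10 that was called. OSBPL7, MOSPD2, PI4K2A, SACM1L, VAPA, VAPB and PI4KB, and single markers, were named after their values were seen. The alternatives tried were DESeq2 1.42.0, RLE and upper-quartile scaling, no filter, a mean of at least 1 CPM, a replicate block, a threshold of 0.01 on the adjusted p, calls without the fold limit, the 12 libraries in 1 fit for each effect, library quality weights (limma 3.58.1) and leaving out each library.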

Additional observations from a re-analysis of the deposited data

How the results depend on the processing

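In HEC-1A STARD4 and TMEM97 were called in all 16 other settings, as was NPC1L1, whose low DMSO counts make that no support, and the count of 3 was 5 without a fold limit. In T-HESC the count of 0 became 3 with DESeq2, without a filter, in the fit of 12 libraries and with library quality weights, and 0 to 3 when single libraries were left out. The number of genes called higher in the whole table also rose, from 11 of 13753 in the reported fit. It was 100 of 15097 (DESeq2), 145 of 29303 (no filter), 133 of 16132 (12 libraries) and 230 of 13753 (quality weights). The count of genes whose effect differed between the lines, 0, became 1 without a filter and 2 with quality weights, and 0 to 1 when single libraries were left out. NPC1 was the gene called in each of these settings. Over the whole table, 7 genes were called higher and 21 lower in the reported fit. These numbers became 54 and 87 without a filter and 153 and 227 with quality weights. They were 39 and 41 without T-HESC AG-205 replicate 1. With quality weights NPC1L1 was called as well, but it was at the floor in T-HESC and gave no difference that can be read. The count of genes lower in T-HESC under DMSO, 1, became 2 with the replicate block and without a fold limit, 3 with quality weights, and 1 to 2 when single libraries were left out. STARD3 was added without the fold limit, and NPC1 and NPC1L1 with quality weights. The replicate block and leaving out T-HESC DMSO replicate 2 each added NPC1L1. NPC1L1 was at the floor under DMSO in both lines, so its calls are no support. In the wider list, the count in HEC-1A, 2, became 6 without a fold limit. In T-HESC the wider list's 0 became 1 with DESeq2, without a filter and in the fit of 12 libraries, 2 with quality weights, and 0 to 1 when single libraries were left out. The cause of these shifts was not tested, apart from the fold limit and the left-out libraries, which are the change itself.

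Leaving out single libraries turned the sign of some small values. In HEC-1A, OSBP ranged from -0.041 to 0.11 and STARD5 from -0.078 to 0.52, and in T-HESC GRAMD1A ranged from -0.43 to 0.23. The difference of the effects ranged from -0.55 to 0.13 for GRAMD1A, from -0.22 to 0.17 for NPC2, from -0.015 to 0.46 for OSBP, from -0.040 to 0.17 for STARD3 and from -0.39 to 0.43 for TMEM97. OSBP under DMSO, 0.04 between the lines, was -0.13 with upper-quartile scaling and -0.014 to 0.075 when libraries were left out. None of these values passed the test in any setting.

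The replicate numbers were not shown to pair the samples: same-numbered AG-205 and DMSO libraries had correlations of their deviations of -0.0715, 0.235 and -0.00033 in HEC-1A and 0.2, -0.493 and -0.0264 in T-HESC. With the replicate number as a block, 3 of the 10 genes were called in HEC-1A and 0 in T-HESC. Counts near 0 limit NPC1L1 and GRAMD1B, and the spread between T-HESC libraries limits what could be called there.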
